A study of Nothobranchius furzeri with 8 samples.

Results

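Iron handling in the killifish brain was described through 5 genes out of the 23546 in the tables: transferrin (tfa, Nfu_g_1_020367), the transferrin receptor (tfr1a, Nfu_g_1_020593), the metalloreductase STEAP2 (Nfu_g_1_013428), the copper enzyme ceruloplasmin (cp, Nfu_g_1_002596) and the transporter slc22a4 (Nfu_g_1_022289). The genes were picked by identifier with their difference between the 2 groups of fish already known, so that difference is given as a description, any count of them past a threshold stands beside the share of all genes only, and all 5 passed the filter on low counts that left 19536 genes for the fits. Also described are the level of each gene in the brain, its spread within a group and how the genes moved together within groups. A test of the group difference weighs it against the spread, so the spread is not independent of the choice.

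The study examined what happens in the adult brain of Nothobranchius furzeri, a short-lived annual fish, when the microRNA family miR-29 is blocked in neurons. RNA-seq libraries were made from the brains of 4 wild-type fish (MZM-04/10p) and 4 sponge-29 fish, all 12 weeks old. The sponge-29 fish belong to a transgenic line on the same strain (kif5a::miR-29sponge) in which the neuronal kif5aa promoter of zebrafish drives eGFP with repeated miR-29 binding sites, a transcript that sequesters the microRNA. Whole brain was sampled although the transgene is limited to neurons, and neither miR-29 nor the transgene was measured in these libraries. Neuronal markers were present in every library, snap25a for instance at 126 ± 10.7 CPM in wild-type and 176 ± 19.6 CPM in sponge-29 (SD, n = 4). CPM are counts normalised to a common library size. Each library is taken as a separate fish, as the labels list them, and p-values measure only the spread between these libraries, which may be technical in part.

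Vertebrates carry ferric iron in plasma and cerebrospinal fluid bound to transferrin, which cells take up through the transferrin receptor. In the endosome a metalloreductase of the STEAP family reduces the iron so that it can cross the membrane, and on the way out of cells ferroxidases such as ceruloplasmin oxidise it again for loading onto transferrin. The latter step ties iron to copper, since ceruloplasmin carries copper at its active site and inherited loss of the human protein causes iron to accumulate in the brain.

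Library totals were 21665735 to 24902251 counts in wild-type and 18014090 to 21081878 in sponge-29, without overlap between the groups. The library numbers run from 42 to 45 in wild-type and from 46 to 49 in sponge-29. A difference in how the libraries were handled therefore cannot be told apart from genotype in any group difference below. Wild-type 2 and sponge-29 4 stood apart from their groups: a chi-square of the counts over genes, divided by its degrees of freedom, was 31.8 to 39.6 for the pairs with wild-type 2 and 13.2 to 14.5 for the other wild-type pairs, and 20.8 to 29.7 for the pairs with sponge-29 4 against 9.66 to 16 for the other sponge-29 pairs. Every pair differed by more than sampling noise, which also holds for repeat libraries of one RNA and does not show that the fish are separate. The differences of tfa and cp, and the relation of these 2 genes, are given with and without wild-type 2 and sponge-29 4.

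Transferrin was one of the most abundant transcripts of the killifish brain. It reached 4695, 2407, 5117 and 4242 CPM in wild-type fish 1 to 4, and 7386, 8971, 8244 and 6283 CPM in sponge-29 fish 1 to 4. Every sponge-29 brain was above every wild-type brain, with wild-type 2 far below the others of its group and sponge-29 4 the lowest of its own. Group means were 4115 ± 1194 CPM and 7721 ± 1157 CPM (SD, n = 4), a difference of 0.91 on the log2 scale (standard error 0.22), or 1.88-fold with 1.61 to 2.19 as the bounds at 1 standard error. An absolute difference of that size was exceeded by few genes, since 96.1% of those tested had a smaller one. Without wild-type 2 the log2 difference was 0.72, without sponge-29 4 it was 0.99, and without both it was 0.81.

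The share of all counts taken by this single gene was 0.478%, 0.245%, 0.516% and 0.424% in the wild-type libraries. In sponge-29 the share was 0.722%, 0.892%, 0.826% and 0.615%. Transferrin thereby had the highest count of any gene in sponge-29 fish 1, 2 and 3, whereas in the other 5 libraries the place was held by Nfu_g_1_019825, which has no symbol in the tables used here.

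The transferrin receptor tfr1a, the protein that binds iron-loaded transferrin at the cell surface, was the one gene of the set with the lower mean in the libraries labelled sponge-29, in the deposited counts as in the RPKM. Wild-type fish 1 to 4 had 109, 117, 102 and 122 CPM, and sponge-29 fish 1 to 4 had 57.4, 104, 72.7 and 79.4 CPM. Sponge-29 fish 1, 3 and 4 were below all wild-type fish, and sponge-29 2 lay just above the lowest of them, so the groups overlapped by this fish. The means were 113 ± 8.88 CPM and 78.4 ± 19.5 CPM (SD, n = 4), a log2 difference of -0.52 (standard error 0.16), or 0.70-fold.

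At 10441 bases tfr1a was longer than 97.9% of the genes, and the groups differed in how counts followed gene length. For each library the deviation of log2 CPM from the mean of the gene over all libraries was fitted against length. The slope of this deviation per doubling of length was between 0.014 and 0.027 in the 4 wild-type libraries. In the 4 sponge-29 libraries it was between -0.037 and -0.0046. The slopes are relative to the mean of all libraries, so they show how libraries differ and not the trend within a library. With the length trend taken out, the log2 difference of tfr1a was -0.35, while the other genes moved less, tfa to 0.95, cp to 0.72, slc22a4 to 0.55 and STEAP2 to 0.43.

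STEAP2, which reduces ferric iron and cupric copper, had the tightest values. Wild-type fish 1 to 4 gave 31.2, 29.4, 29 and 32.2 CPM, and sponge-29 fish 1 to 4 gave 43.6, 39.0, 37.9 and 41.8 CPM. The groups did not overlap, which was so for 21.9% of all genes, with 32.2 CPM as the highest wild-type and 37.9 CPM as the lowest sponge-29 value. Means of 30.4 ± 1.5 CPM and 40.6 ± 2.62 CPM (SD, n = 4) differed by 0.41 on the log2 scale (standard error 0.07), or 1.33-fold, the smallest difference among the 5 genes and larger than that of 80.3% of all genes.

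Ceruloplasmin, encoded by cp, followed transferrin in which fish were high and low. It was counted at 806, 579, 886 and 804 CPM in wild-type fish 1 to 4, and at 1098, 1588, 1303 and 710.2 CPM in sponge-29 fish 1 to 4. Sponge-29 fish 1, 2 and 3 were above all wild-type fish, while sponge-29 4 was below 3 of the 4. With means of 769 ± 132 CPM and 1175 ± 369 CPM (SD, n = 4), the log2 difference was 0.61 (standard error 0.23), or 1.53-fold. Without sponge-29 4 the log2 difference was 0.79, without wild-type 2 it was 0.50, and without both it was 0.68.

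The transporter slc22a4, a member of the organic cation family whose human counterpart carries ergothioneine and which the study counts among its heme and iron genes, was the least abundant. Wild-type fish 1 to 4 had 12.2, 9.07, 8.24 and 10.5 CPM and sponge-29 fish 1 to 4 had 16.9, 18.5, 12.4 and 11.2 CPM. The groups overlapped, because sponge-29 4 lay below wild-type 1, and 15 of the 16 pairings of a sponge-29 with a wild-type fish had the sponge-29 fish higher. The means were 10.0 ± 1.73 CPM and 14.8 ± 3.46 CPM (SD, n = 4), a log2 difference of 0.56 (standard error 0.19), or 1.48-fold. The counts behind these values were 198 to 359 per library, which leave a counting error of 5.28% to 7.11%.

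**Figure D1:**
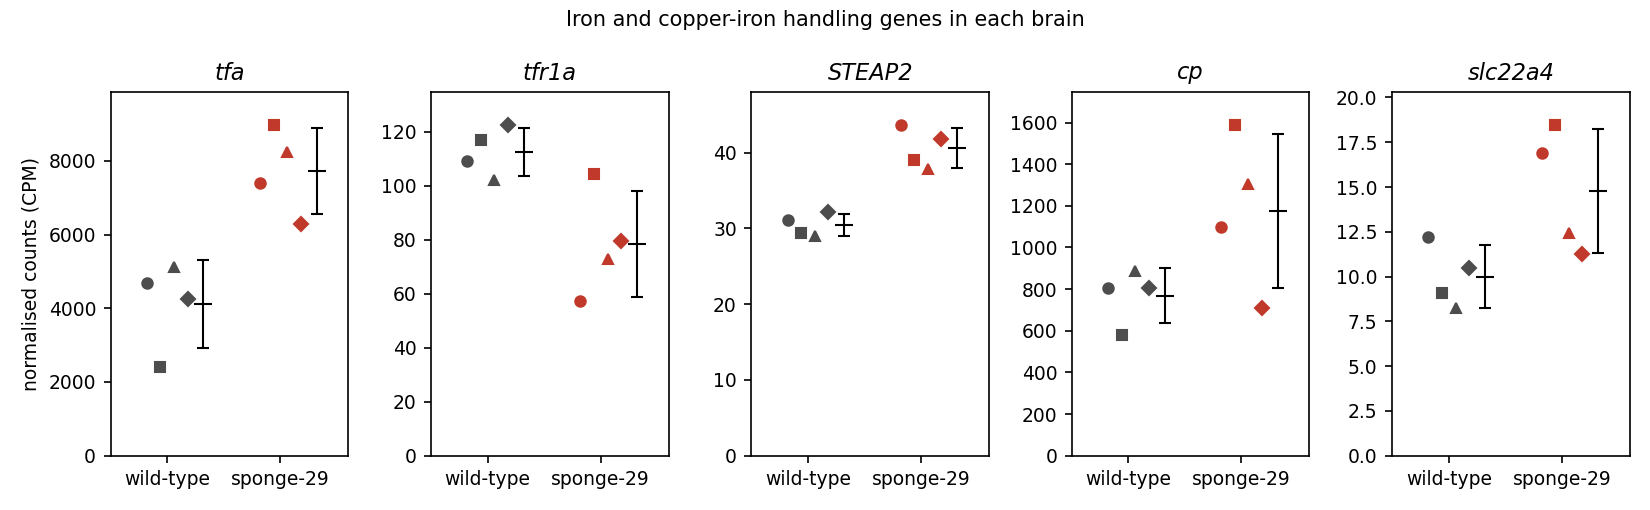
Normalised counts (CPM, axes from 0) of the 5 genes in each brain, with 4 wild-type fish in grey and 4 sponge-29 fish in red, the symbol shape giving the fish number 1 to 4 (circle, square, triangle, diamond) and the bar the mean ± SD. The groups are separate for tfa and STEAP2 and overlap by 1 sponge-29 fish for tfr1a, cp and slc22a4.

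In all, 4 of the 5 genes had the higher mean in sponge-29 and 1 had the lower, with a median log2 difference of 0.56 against -0.01 over all genes tested. Of the 5, 2 passed the threshold of an adjusted p of 0.05 (tfa and STEAP2, both higher; quasi-likelihood test of edgeR, adjusted by Benjamini-Hochberg), beside 12% of all genes that passed in either direction, 6.15% as higher and 5.84% as lower. The groups did not overlap for the same 2 genes, beside 21.9% of all genes. As the genes were chosen on this difference, nothing is read from these counts. Other tests moved the count: all 5 passed with DESeq2, beside 19.4% of all genes, and 3 passed with edgeR's likelihood ratio test, beside 10%, and with limma voom, beside 11.9%, where tfr1a was the addition. With 1 fish left out, where 427 to 2125 genes passed over all against 2341 with 8 fish, the count was 1 in 5 of 8 fits. In 6 of these 8 fits tfa did not pass. The count stayed at 2 with the gene length trend removed, beside 7.83%, and with limma on RPKM, beside 11.5% and 11.4% for a pseudocount of 1 and 0.1. With wild-type 2 and sponge-29 4 left out, cp passed as well and the count was 3, beside 6.97% of all genes. In whole brain, fewer cells of a type and less RNA per cell cannot be told apart.

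Levels between genes were compared per length, as the deposited RPKM (reads scaled to the length of the gene and to the reads of the library). The mean over the 8 fish was 1157 RPKM for tfa, 123 for cp, 10.7 for STEAP2, 9.17 for tfr1a and 5.29 for slc22a4, a span of 219-fold. Carrier and ferroxidase thus formed an abundant pair, with the receptor, the reductase and the transporter far below them.

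Among the 23546 genes ranked by RPKM, tfa held places 61, 106, 43 and 62 in wild-type fish 1 to 4 and places 23, 16, 14 and 54 in sponge-29 fish 1 to 4. For cp the place ranged from 312 to 849 over the 8 fish. The less abundant genes were in the middle of the list, STEAP2 between places 6245 and 8690, tfr1a between 6877 and 11128 and slc22a4 between 9084 and 13171.

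**Figure D2:**
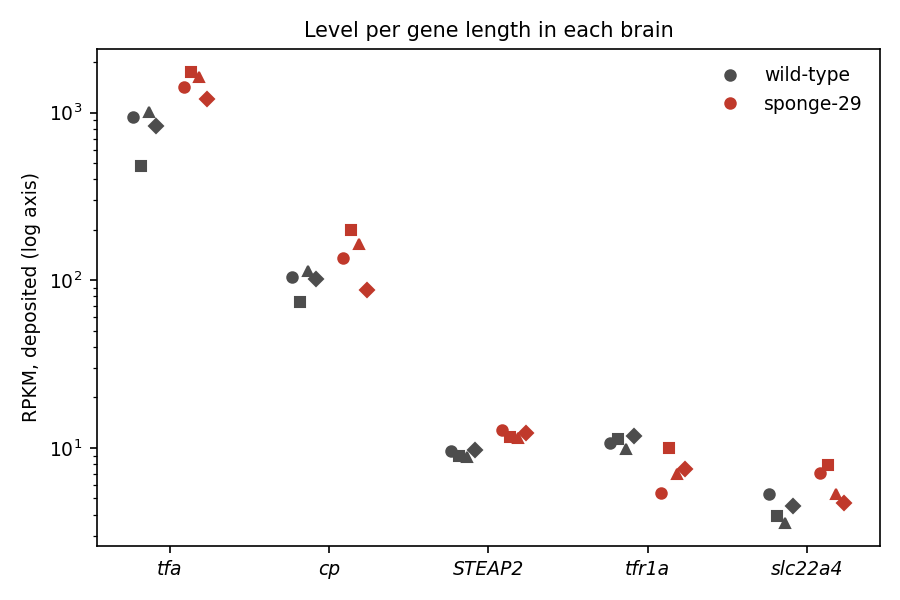
Deposited RPKM of the 5 genes in each brain on a log axis, wild-type in grey and sponge-29 in red, with the symbol shape giving the fish number. The values of tfa and cp overlap neither each other nor those of the other genes. Those of tfr1a overlap with STEAP2 and with slc22a4, which do not overlap each other.

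The order at the top did not vary: in each fish tfa was above cp and cp above the other 3 genes. The order of STEAP2 and tfr1a depended on the group. In wild-type the RPKM ratio of STEAP2 to tfr1a was 0.896, 0.790, 0.893 and 0.826 in fish 1 to 4, and in sponge-29 it was 2.39, 1.18, 1.63 and 1.65. The receptor was the more abundant of the pair in all 4 wild-type brains and the reductase in all 4 sponge-29 brains. This restates the group differences known when the genes were chosen, and other pairs of genes were not examined for it. RPKM keeps the trend with gene length, and with that trend removed the log2 difference of tfr1a was -0.35, not -0.52. Over all 8 fish the RPKM of tfr1a (5.37 to 11.7) and of slc22a4 (3.56 to 7.86) overlapped, as did those of tfr1a and STEAP2 (8.80 to 12.8), so neighbours in this lower part of the order were not separated by their spread.

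The ratio of tfa to tfr1a in the deposited RPKM combined both differences, and no other transferrin receptor gene was analysed here. In wild-type fish 1 to 4 the RPKM of tfa was 88.1, 42.2, 103 and 71.0 times that of tfr1a. In sponge-29 fish 1 to 4 it was 264, 176, 232 and 162 times that of tfr1a. The groups did not overlap, with means of 76.0 ± 26.0 and 208 ± 47.6 (SD, n = 4). Nothing is read from this separation, since both genes were chosen with their difference known and ratios of other genes were not examined for it. The ratio also keeps the trend with gene length, without which the log2 difference of tfr1a was -0.35, not -0.52. The ratio of tfa to cp differed less, at 8.14 ± 1.20 in wild-type and 10.7 ± 2.14 in sponge-29, and its values overlapped.

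The genes also differed in how much fish of one group varied. A test of the group difference depends on this spread, so the spread is not independent of the choice of genes. The coefficient of variation of tfa was 29% in wild-type and 15% in sponge-29, where counting error alone would give 0.239% to 0.416%. For cp it was 17.2% and 31.4% with a counting error of 0.569% to 0.894%, and for tfr1a it was 7.88% and 24.9% with a counting error of 1.87% to 2.91%. Variation between fish was therefore far above counting error for these 3 genes. STEAP2 had a coefficient of variation of 4.92% in wild-type and 6.46% in sponge-29. This was above its counting error of 3.33% to 3.82%, by less than in those 3 genes.

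Set against all genes tested, tfa and cp were among the more variable and STEAP2 among the most stable. The SD of log2 CPM within groups was 0.38 for tfa and 0.40 for cp, larger than in 82.6% and 83.9% of the genes. It was 0.30 for slc22a4 and 0.26 for tfr1a, larger than in 74.2% and 69.3%. For STEAP2 it was 0.08, with only 8.55% of the genes at a smaller value.

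Whether the genes varied together from fish to fish was examined on the deviation of log2 CPM from the mean of the own group, which removes the group difference. Of the 10 pairs of genes, only tfa and cp passed the threshold. Their Pearson r was 0.79 over the 8 fish (exact permutation test within groups, two-sided, p = 0.0017, the smallest that the arrangements of 8 fish can give, and 0.017 after Benjamini-Hochberg adjustment over the 10 pairs). Spearman's rho was 0.86 (exact permutation p = 0.0035, adjusted 0.035). The ranks of the fish by tfa and by cp were identical in wild-type and identical in sponge-29.

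The fish farthest from the median of tfa were wild-type 2, with deviations of -0.72 for tfa and -0.39 for cp, and sponge-29 4, with -0.28 and -0.67. These are the same libraries that stood apart from their groups over all genes. Without them r was 0.86 over the remaining 6 fish, and with any one fish left out it was between 0.78 and 0.93. The value of r was thus not lower without wild-type 2 and sponge-29 4, but no p-value was taken from the 6 fish.

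**Figure D3:**
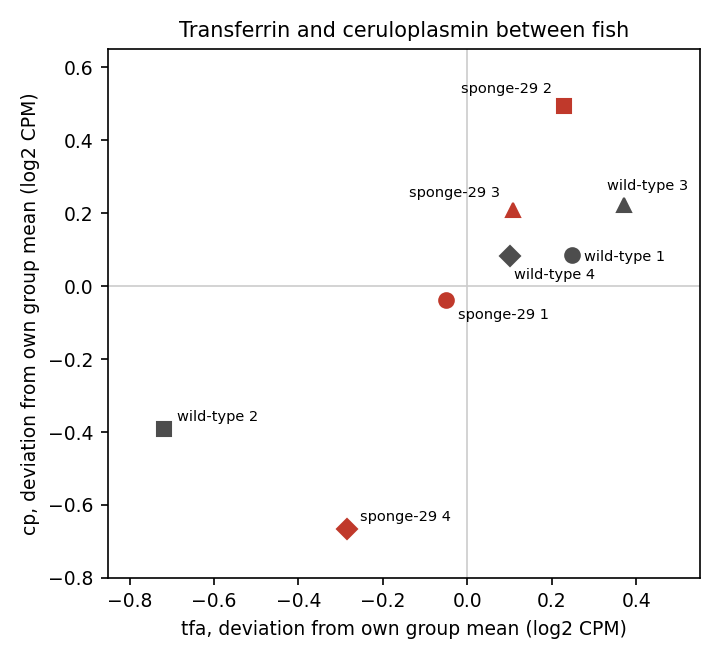
Deviation of log2 CPM from the mean of the own group for tfa (horizontal) and cp (vertical) in each of the 8 brains, wild-type in grey and sponge-29 in red. The fish run from the lower left, wild-type 2 and sponge-29 4, to the upper right, with r = 0.79.

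None of the other 9 pairs passed, with adjusted p = 0.94 in each (exact permutation test, n = 8 fish). Their r lay between -0.34 for cp and STEAP2 and 0.54 for cp and slc22a4, and between tfa and tfr1a r was 0.02. Several of these values changed sign with the fish left out. For tfr1a and STEAP2 r was -0.34 over 8 fish and 0.71 without sponge-29 1 and sponge-29 2, the fish farthest from the median of tfr1a, and for cp and slc22a4 it was 0.54 and then -0.0045 without wild-type 2 and sponge-29 4.

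The genes most like each of the 5 were sought among those with a symbol, by the r of the same deviations over the 8 fish, as a description. Only 1418 identifiers had a symbol, from tables of genes that the study selected as changed, so genes without one could be closer. Among all genes tested, the closest with a symbol was at place 4 for tfa, 2 for tfr1a, 14 for cp, 1 for slc22a4 and 27 for STEAP2. For tfa the closest was epd (r = 0.98), ependymin, a secreted glycoprotein of fish cerebrospinal fluid made by cells of the meninges. It was followed by zgc:158659 (0.96) and Nfu_g_1_009814 (0.95), both of which had the lower mean in sponge-29, unlike tfa and epd. Their means in wild-type and sponge-29 were 70.1 and 54.7 CPM for zgc:158659 and 50.9 and 14.2 CPM for Nfu_g_1_009814. Of the 19535 other genes tested, 104 (0.532%) had r above 0.9 with tfa, and cp stood at place 510. In the study's own groups epd was counted at 4118, 1681, 4681 and 3387 CPM in wild-type fish 1 to 4. In sponge-29 fish 1 to 4 it was counted at 5842, 7779, 6441 and 5455 CPM. Wild-type 2 was the lowest and sponge-29 2 the highest for this gene, as for tfa, and sponge-29 4 was again the lowest of its group.

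For cp the closest gene with a symbol was AHSG (r = 0.96), fetuin-A, a plasma glycoprotein made mainly by the liver in mammals. It was followed by pnocb (0.93), which encodes a precursor of nociceptin peptides, and fam20a (0.93), and 99 genes (0.507%) had r above 0.9. The values of AHSG were 1657, 1434, 1673 and 1686 CPM in wild-type fish 1 to 4 and 2314, 2605, 2273 and 1691 CPM in sponge-29 fish 1 to 4. As for cp, sponge-29 4 was the low fish of its group and wild-type 2 that of the other.

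The 3 less abundant genes each had other neighbours. Among genes with a symbol, tfr1a was closest to the 2 identifiers of ccnt2a (0.97 and 0.94), cyclin T of the transcription elongation complex P-TEFb. Next was uspl1 (0.86), a SUMO protease. The neighbours of slc22a4 were PTS (0.98), an enzyme of tetrahydrobiopterin synthesis, the glial transcription factor sox9a (0.91) and GPR37 (0.88). STEAP2 was closest to si:ch211-271g18.3 (0.90), Nfu_g_1_015848 (0.87) and the polycomb gene phc2b (0.85). Among all genes tested, uspl1 was at place 128 for tfr1a, GPR37 at 70 for slc22a4 and phc2b at 60 for STEAP2. Genes with r above 0.9 numbered 52 for tfr1a, 37 for slc22a4 and 26 for STEAP2.

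Further genes of iron handling came from a list of 83 symbols, of which 78 are other than the 5 genes. An identifier was paired with 11 of these, giving 13 identifiers, each counted as a gene, since neo1 has 3. Ferritin chains, ferroportin and the rest were not analysed here. The pairs of symbol and identifier come from tables of genes that the study selected as changed, so the directions below are not independent evidence. Of the 13 genes, 6 rose, 4 fell and 3 did not pass the same edgeR test, with a median log2 difference of 0.36, beside 6.15% and 5.84% of all genes that passed as higher and as lower. With the gene length trend removed 4 passed as higher and none of the 4 that fell passed, beside 7.83% of all genes in either direction.

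For mitochondrial iron and iron-sulfur clusters 5 of 21 symbols had an identifier, again only from genes that the study selected as changed. These 5 genes rose in sponge-29, beside 6.15% of all genes that passed as higher. Of them, isca1 and ciapin1 did not pass with the length trend removed. The 5 were led by nubpl, which inserts clusters into complex I, with a log2 difference of 0.67 (standard error 0.12). ISCA2 and isca1, cluster assembly proteins, followed with 0.54 (standard error 0.12) and 0.50 (standard error 0.12). The cysteine desulfurase nfs1, which supplies the sulfur, had 0.38 (standard error 0.07), and ciapin1 completed the group.

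For iron regulation only 2 of 11 symbols had an identifier, giving 4 identifiers, of which 3 carry the symbol neo1. Whether these 3 are separate genes was not examined. Of the 4 identifiers, 3 fell, beside 5.84% of all genes that passed as lower, and 1 did not pass. The log2 differences of the 4 were from -0.48 to -0.38. None of the 4 passed with the length trend removed, where the differences were between -0.42 and -0.25. The 4 were furinb, a protease that in mammals cleaves hepcidin and hemojuvelin precursors, at -0.41 (standard error 0.10), and those of neo1. The symbol neo1 stands for neogenin, a receptor for hemojuvelin. Among heme genes, pgrmc1, a heme-binding membrane protein, rose by 0.36 (standard error 0.07) and the transporter flvcr2b fell by 0.60 (standard error 0.17; not passing with the length trend removed), while the glycine carrier slc25a38b, needed for heme synthesis, had 0.51 (standard error 0.14) and did not pass.

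The only other metalloreductase with an identifier, steap4, had the widest spread. Its values were 56.9, 48.9, 55.2 and 59.7 CPM in wild-type fish 1 to 4 and 120.3, 197, 85.7 and 47 CPM in sponge-29 fish 1 to 4. Sponge-29 4 was below all wild-type fish and the other sponge-29 fish were above all of them, and the log2 difference of 1.03 (standard error 0.35) did not pass the test. STEAP2, of the same family, kept within 37.9 and 43.6 CPM in those 4 fish.

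For copper, 3 of 14 listed symbols had an identifier. The superoxide dismutase sod1, a copper and zinc enzyme, rose by 0.36 (standard error 0.08), and its copper chaperone CCS had 0.42 (standard error 0.12) and did not pass, though it did with the length trend removed. The chaperone cox17, which delivers copper for cytochrome c oxidase, fell by 0.57 (standard error 0.09), from 27.8 to 32.8 CPM in wild-type fish to 18.8 to 22.3 CPM in sponge-29 fish.

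**Figure D4:**
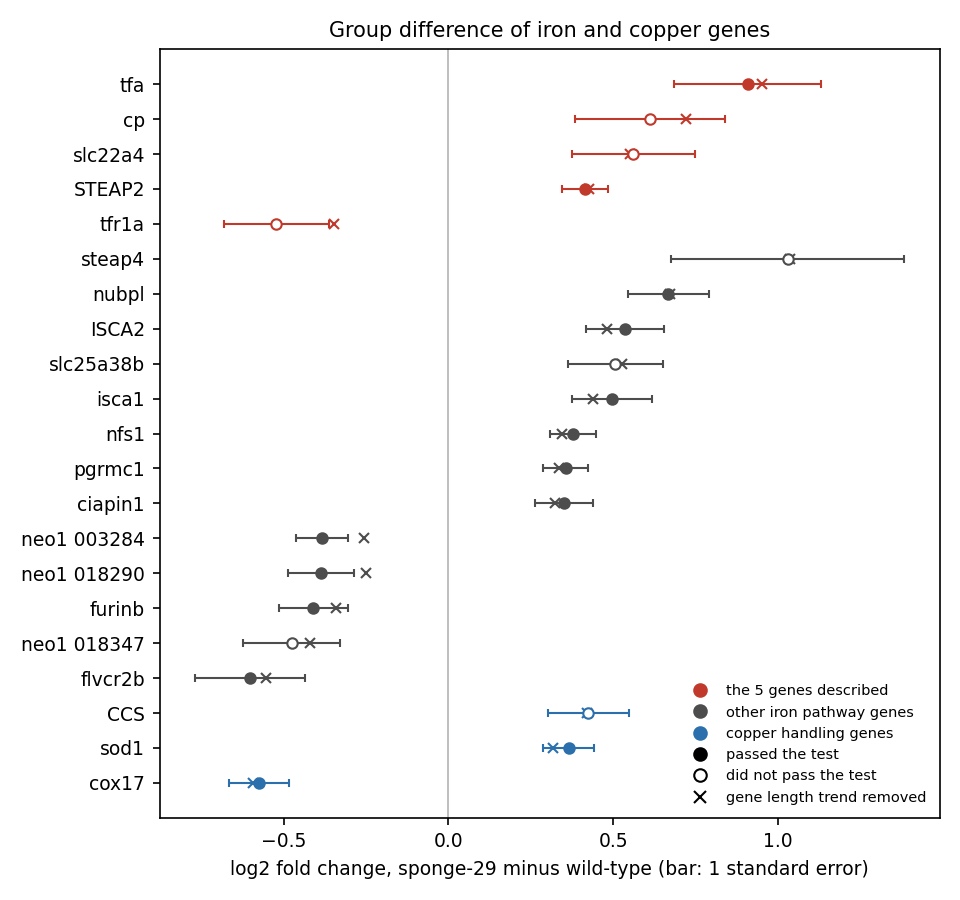
Log2 fold change (sponge-29 minus wild-type, bars 1 standard error) of the 5 genes described (red), the other 13 iron pathway genes (grey) and the 3 copper genes (blue), filled where the edgeR test was passed, with crosses for the value after removal of the gene length trend. Genes of iron-sulfur clusters lie to the right of 0, neo1 and furinb lie to the left with tfr1a, and no cross is on the other side of 0 from its circle.

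Marker genes of several cell types also differed between the groups. The pairs of symbol and identifier have the same source as above, and the counts that passed stand beside 12% of all genes. For cells of the meninges and ventricle lining 5 of 10 symbols had an identifier, all 5 had the higher mean in sponge-29 and 2 of them passed. Their summed level was 2277 to 5365 CPM in wild-type and 6267 to 8827 CPM in sponge-29, of which epd alone made up 73.9% to 88.1%. Within groups the r with tfa was 0.98 for epd, 0.84 for igfbp2a and 0.80 for ptgdsb, but 0.40 for clu and -0.15 for cst3, so the list did not follow tfa as a whole. For secreted liver and plasma proteins 3 of 13 symbols had an identifier, all 3 had the higher mean and 2 passed, with a summed level of 1755 to 1992 CPM in wild-type and 2140 to 3058 CPM in sponge-29. Most of this sum was AHSG, which did not pass, with means of 1613 CPM in wild-type and 2221 CPM in sponge-29. Within groups the r with tfa was 0.69 for AHSG, but -0.22 for apoa4 and -0.20 for proza, so this list did not follow tfa as a whole either. The liver is the main source of plasma transferrin and ceruloplasmin in mammals, and the part of these markers in the values of tfa and cp was not tested. Of the markers here and below, the study lists AHSG, igfbp2a and nefl among predicted miR-29 targets. What this contributes to their levels was not tested.

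The other marker lists gave 1036 to 1395 CPM in wild-type against 1621 to 1807 CPM in sponge-29 for neurons (6 of 12 symbols, all 6 with the higher mean, 5 passing), 216 to 364 against 441 to 466 CPM for astroglia (2 of 11, both rose) and 75.3 to 90.1 against 98.7 to 128 CPM for oligodendrocytes (3 of 10, all 3 rose). Most of the astroglia sum was KCNJ10, with means of 290 CPM in wild-type and 425 CPM in sponge-29, against 19.6 and 29.4 CPM for sox9a. Endothelium was the list with lower values, 108 to 157 CPM against 75.0 to 96.0 CPM (3 of 10 symbols with 4 identifiers, 3 falling). For red cells only bpgm had an identifier, of 9 symbols, and it rose, from 20.7 to 23.9 CPM in wild-type to 26.8 to 32.8 CPM in sponge-29; the globins were not analysed here. For microglia and macrophages (2 of 10) the summed level was 22.5 to 103 CPM against 26.4 to 37.6 CPM, and the 2 markers differed in opposite directions: mrc1a rose by 0.79 (standard error 0.15), while ITGAM had -1.84 (standard error 0.77) and did not pass. With the length trend removed cst3, pmp22a, KCNJ10 and an identifier of ptprb no longer passed. Likeness to tfa was not limited to the meninges and liver lists. Within groups the r of the summed level with tfa was 0.90 for astroglia, 0.68 for neurons and 0.43 for endothelium. It was 0.28 for red cells, -0.09 for oligodendrocytes and -0.94 for microglia and macrophages. Single genes KCNJ10 (0.91) and mrc1a (0.86) were above igfbp2a and ptgdsb, while ITGAM had -0.95. No marker with an identifier was at 0 in any library, and the part of these lists in the values of the 5 genes was not tested.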

How the data were processed

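RNA of whole brains from 8 fish was sequenced as single reads after library preparation with the TruSeq RNA kit v2. The authors deposited raw gene-level counts made with TopHat2 2.0.6 and featureCounts 1.4.3-p1 (bcl2fastq 1.8.4 before them, per the submitters' processing notes). The authors also deposited RPKM values of the same genes, from which gene length was taken as the ratio of counts to RPKM, whole within 0.01 bases in 23134 genes. Strand and multi-mapping settings are not given in the sources used here. The study's additional tables, which also hold fold changes and p-values of its own comparisons, served only to pair 1418 identifiers with symbols. None of the identifiers matched the RefSeq gene table of another assembly.

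Counts were analysed with R 4.3.3 and edgeR 4.0.16: filterByExpr with a minimum count of 10, TMM scaling, and the quasi-likelihood F-test, with p-values of 19536 genes adjusted by Benjamini-Hochberg and a threshold of 0.05, between 4 and 4 libraries without covariates. Log2 CPM used a prior count of 2, and deviations from group means were tested by exact permutation of fish within groups. The 5 genes and the lists were chosen with earlier results of these data known. Named were these 5, the listed symbols with an identifier (at most 4 for each role) and the 3 genes with a symbol most like each of the 5, a few by identifier. DESeq2 1.42.0 and limma 3.58.1, other scalings and filters, the RPKM values with a pseudocount of 0.1 or 1, removal of the length trend (a spline with 4 degrees of freedom) and leaving out libraries were the alternatives; leaving out wild-type 2 and sponge-29 4 together was chosen after seeing the data. The fits of the group difference, the removal of the length trend and the test of covariation were tried on simulated data, the other steps were not. Fish are numbered in the order of the deposit, which carries no pairing.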

Additional observations from a re-analysis of the deposited data

How the results depend on the processing

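The direction of the difference of all 5 genes was kept under every alternative run, and STEAP2 passed the threshold in each. The number of the 5 that passed was 2 in the edgeR fit and 5 with DESeq2, which also called 3784 genes over all against 2341; the cause was not tested. It was 3 with the likelihood ratio test and with limma voom, where tfr1a passed. Removal of the gene length trend left 1529 genes in all and leaving out wild-type 2 and sponge-29 4 together left 1361, with fewer fish. With 1 fish left out at a time, between 427 (without wild-type 4) and 2125 genes passed, 441 without sponge-29 2, 886 without wild-type 3, 990 without sponge-29 4, 1153 without wild-type 1 and 1480 without sponge-29 1, and between 1 and 3 of the 5. The log2 difference of tfa lay between 0.72 and 1.03 in these fits and did not pass in 6 of 8. cp passed without sponge-29 4 (0.79) and tfr1a without sponge-29 2 (-0.69). The pair of tfa and cp passed under every alternative with 8 fish. With 7 fish the unadjusted p was 0.0069 (exact permutation test), the smallest these allow. Adjustment over the 10 pairs would leave 1 pair alone at that p above 0.05, so the fits with 7 fish cannot decide whether the pair passes. No paired analysis was possible because the labels carry no replicate numbers. With 4 fish a group, the smallest detectable difference was not estimated. Differences above the spread could also fail the quasi-likelihood test. These included cp (0.61, SD within groups 0.40), slc22a4 (0.56, SD 0.30) and tfr1a (-0.52, SD 0.26). Genes at a few counts per library were imprecise.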

Other observations

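ITGAM, an integrin subunit of microglia and macrophages, was counted at 94.6 CPM in wild-type 2, the library that stood apart and had the lowest transferrin. In the other wild-type fish it was counted at 10.2, 11.7 and 13.4 CPM, and in sponge-29 fish 1 to 4 at 7.61, 7.51, 4.95 and 16.2 CPM. In sponge-29 as well, the fish with the highest ITGAM, sponge-29 4, was the one with the lowest tfa and cp. The other marker of these cells with an identifier, mrc1a, a mannose receptor, went the other way: it was lowest in wild-type 2, at 8.57 CPM against 12.3, 14.6 and 12.7 CPM in the other wild-type fish, and had 19.7, 20.6, 21.4 and 21.4 CPM in sponge-29 fish 1 to 4. Both genes were singled out after their values were seen.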
